A study of Homo sapiens with 18 samples.

Results

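The genes described are those of pericellular matrix proteolysis in 6 human ovarian cancer cell lines: 4 matrix metalloproteinases (MMP1, MMP2, MMP14 and MMP15), 3 tissue inhibitors of metalloproteinases (TIMP1, TIMP2 and TIMP3), the urokinase plasminogen activator PLAU with its receptor PLAUR, and the secreted protease ADAMTS1. They were taken by gene symbol from a table of normalized RNA-seq read counts, and all 10 were present among its 12853 genes. RNA depleted of ribosomal RNA was sequenced in 3 replicates per line, giving 18 libraries of 3 pairs of a platinum-sensitive and a platinum-resistant line. A2780, labelled as endometrial or ovarian cancer cells, is sensitive and CP70 is its derivative made resistant in culture. PEA1 (sensitive) came from the ascites of a patient with high-grade serous ovarian cancer before platinum treatment, and PEA2 (resistant) from the same patient after relapse. PEO1 (sensitive) and PEO4 (resistant) both came from another such patient after platinum treatment, before and after resistance developed. Each pair stands for 1 patient or 1 parent line, all lines were grown in the same medium with serum, and no drug is named in the RNA-seq labels.

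Expression is given as log2 CPM (log2 of counts scaled to library size, with 0.5 reads added), and log2FC is always the resistant line minus its sensitive counterpart. A gene passed where the FDR was below 0.05 in limma over all 12853 genes, and it was called where |log2FC| was also above 2. The libraries held from 1344098 to 7067336 reads on the listed genes, so that 3 reads, taken as the floor, stood for 0.452 to 2.18 CPM. This floor and the read ratios given further on cover counting error only. The labels do not say whether replicates were separate cultures, so every FDR measures the spread between these libraries alone. The fit gives each gene a spread shared by all 6 lines, so an SE or FDR is not specific to a line near the floor. In every line the replicates lay farther apart than counting of reads alone would put them (chi-square per degree of freedom from 1.74 to 13.5), and replicate 3 of PEO1, the deepest library, was the farthest from its fellows.

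Matrix metalloproteinases are zinc-dependent enzymes that are made as inactive precursors and cut collagens and other matrix proteins once activated, while TIMPs bind and block the active enzymes. MMP14, held in the cell membrane, activates the precursor of MMP2 in a complex that includes TIMP2, so a protease, its activator and an inhibitor work as a unit. Urokinase, bound to PLAUR at the cell surface, turns plasminogen into plasmin, which dissolves fibrin and activates several metalloproteinase precursors. In ovarian cancer these enzymes are known for their part in the spread of cells through the peritoneal lining.

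The lines differed in lineage markers. The 11 epithelial markers, all measured, summed to 3.36 to 5.42 CPM in A2780, 91.0 to 98.0 in CP70, 433 to 590 in PEA1 and 4163 to 4438 in PEA2, and they summed to 7727 to 8743 in PEO1 and 6136 to 7854 in PEO4. CDH1 (E-cadherin) was at 0 reads in every A2780 and CP70 library and at 0 to 4 in PEA1, and the keratins KRT7 and KRT19 were at 1 to 3 reads in PEA1. Other epithelial markers were present in PEA1, with 379 to 595 reads of PAX8, 93 to 174 of KRT8 and 89 to 119 of KRT18, and in CP70, with 242 to 407 reads of KRT18 and 59 to 95 of EPCAM. In A2780 9 of the 11 were at or below 3 reads in every library. The 8 measured of 11 fibroblast markers summed to 573 to 793 CPM in A2780, 1423 to 1517 in CP70, 367 to 450 in PEA1, 8.63 to 10.52 in PEA2, 155 to 175 in PEO1 and 231 to 237 in PEO4. In PEA1 this sum was nearly all COL1A1, a fibrillar collagen at 513 to 649 reads there and 7 to 11 in PEA2, while 5 of the 8 were at 0 reads in PEA1 and ACTA2 passed as higher in PEA2 (log2FC 1.46, limma FDR = 0.000993). Of the endothelial and leukocyte markers only CDH5 and PTPRC were in the table, at 25.3 to 36.1 and 20.1 to 25.1 CPM in PEA2 and at or below 0.406 and 0.526 CPM in the other lines. These marker differences move with the pairs described next, and their part in the results was not tested.

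Each of the 10 genes passed in at least 1 pair (84.3% of all genes did), and 9 were called in at least 1 pair (22.9% of all genes), the exception being PLAUR. In the A2780 pair 5 passed as higher in CP70 (22.2% of all genes did) and 1 as lower (17.7%), and 4 were called higher (TIMP1, TIMP2, PLAU and ADAMTS1), against 5.66% of all genes, and 0 lower, against 3.40%. In the PEA pair 6 passed as higher in PEA2 (32.5% of all genes) and 3 as lower (29.4%), with 4 called higher (MMP1, MMP15, TIMP3 and PLAU, against 7.93%) and MMP2 called lower (6.15%). In the PEO pair 5 passed as higher in PEO4 (19.6%) and 1 as lower (21.9%), with 3 called higher (MMP2, MMP14 and ADAMTS1, against 2.86%) and MMP15 called lower (3.37%). None of the 10 was called in all 3 pairs, 4 were called in 2 pairs (5.80% of all genes were called in 2 or more), and ADAMTS1 alone of the 10 passed in the same direction in all 3. Of the 30 comparisons of a gene within a pair, 22 had lines that did not overlap, against 58.3% of comparisons over all genes. Of the same 30, 21 passed, against 47.8% of all comparisons over all genes. Each of these 21 was among the 22 without overlap. A line held at most 3 reads in every library in 8 of the 30.

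**Figure D1:**
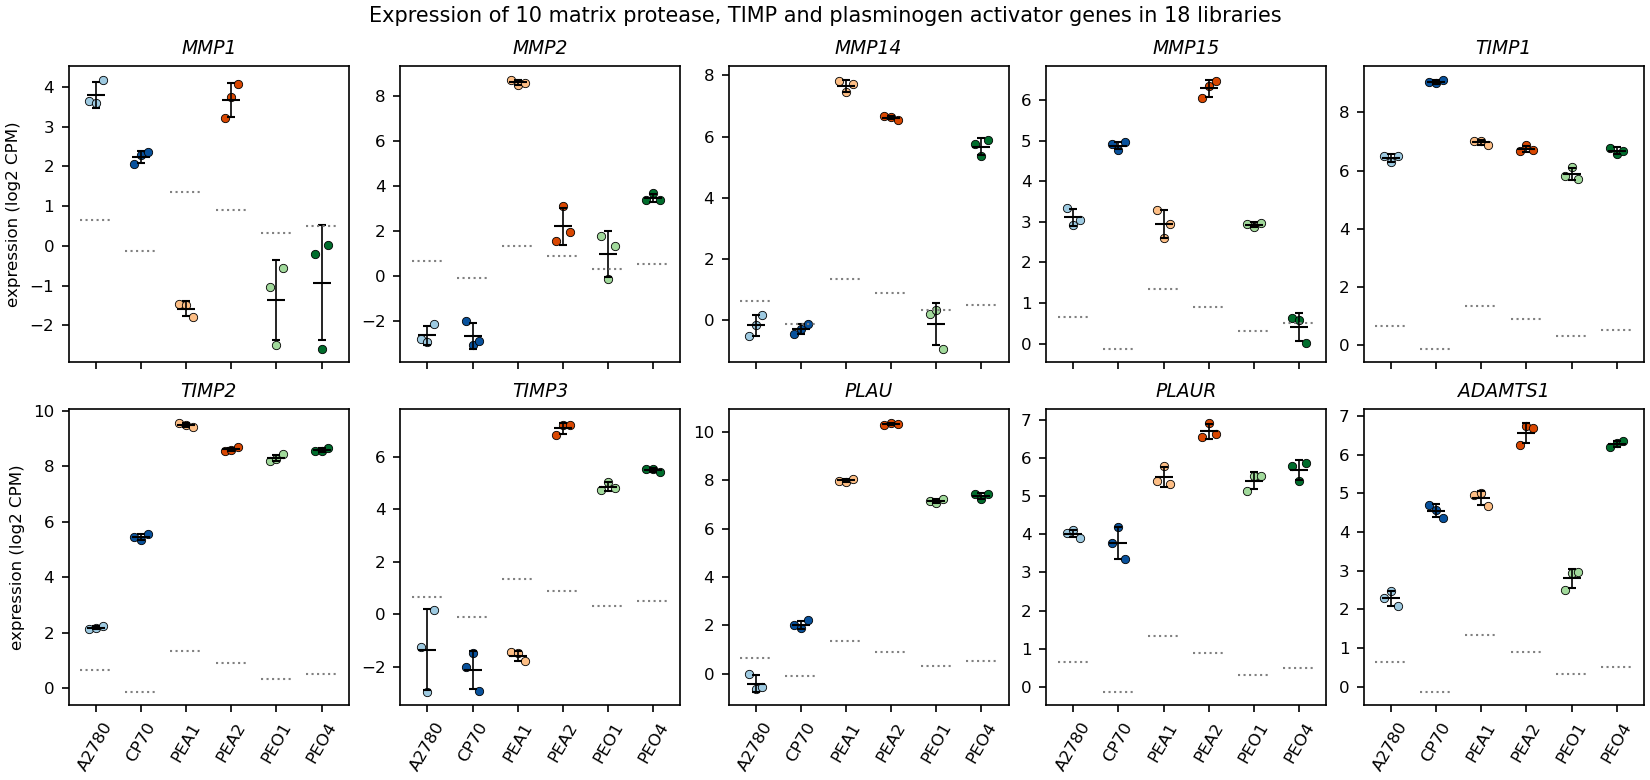
Expression (vertical axis, log2 CPM) of the 10 genes in the 18 libraries. Each point is a library, and horizontal bars give the mean and SD of the 3 libraries of a line. Dotted lines mark the highest of the levels that 3 reads stand for in the libraries of that line. MMP2 and TIMP3 span from below the dotted line to above 7 log2 CPM between lines, whereas PLAUR stays between 3.34 and 6.92.

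MMP1, the interstitial collagenase (chr11:102660132-102668891, minus strand, GRCh37), was most abundant in A2780 and PEA2. It read 3.64, 3.58 and 4.18 log2 CPM in A2780 and 2.06, 2.28 and 2.36 in CP70, and each CP70 library lay below each A2780 library. The log2FC of -1.57 passed (SE 0.57, limma FDR = 0.0338), but it did so in none of the 6 fits that left out a library of this pair (FDR from 0.0517 to 0.112). In the PEA pair MMP1 was not detected in PEA1, with 0 reads in each library, whereas PEA2 held 17, 46 and 36 reads. Set against the floor of 3 reads per library, MMP1 was at least 6.27-fold higher in PEA2 (limma FDR of the fitted log2FC, not of this bound, 1.27e-07). PEO1 and PEO4 held at most 4 reads per library, and the depth-scaled ratio of PEO1 to PEO4 was 0.836 (exact 95% counting interval 0.18 to 4.21), so a difference was not detectable at this depth.

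MMP2, gelatinase A (chr16:55423612-55540603, plus strand), was by far most abundant in PEA1. The PEA1 libraries held 591, 518 and 677 reads of MMP2, or 8.75, 8.53 and 8.61 log2 CPM. PEA2 held 5, 30 and 8 reads, or 1.55, 3.13 and 1.96 log2 CPM, and the libraries of both lines lay far apart. The log2FC was -6.41 (SE 0.48, 95% confidence interval -7.41 to -5.41, limma FDR = 6.12e-10), an 85.2-fold lower level in PEA2. In the PEO pair the direction was the opposite. PEO1 had 1.78, -0.16 and 1.31 log2 CPM and PEO4 had 3.40, 3.68 and 3.37, and all PEO4 libraries lay above those of PEO1 (log2FC 2.51, SE 0.48, FDR = 0.000263). Without replicate 2 of PEO1, which held 2 reads, this log2FC was 1.94 and MMP2 was no longer called. In A2780 and CP70 the gene held at most 1 read per library and no fold was computed.

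MMP14, the membrane-bound activator of the MMP2 precursor (chr14:23305769-23318250, plus strand), separated PEO1 from PEO4 most sharply. It had 3 reads in each of the PEO1 libraries and 155, 123 and 147 in those of PEO4. The depth-scaled read ratio was 70.6 (exact 95% counting interval 36.9 to 156) and limma gave a log2FC of 5.81 (SE 0.30, FDR = 1.39e-11). In the PEA pair MMP14 was high in both lines, at 7.81, 7.44 and 7.73 log2 CPM in PEA1 and 6.66, 6.64 and 6.55 in PEA2. The PEA2 libraries all lay below those of PEA1 by a smaller step than for MMP2 (log2FC -1.04, SE 0.30, FDR = 0.00501). A2780 and CP70 held 2 to 4 reads per library, with a read ratio of 0.98 (0.337 to 3.03), and the gene did not pass there (FDR = 0.804). MMP14 and MMP2 thus had the same sign of log2FC in the PEA and in the PEO pair, lower in PEA2 and higher in PEO4.

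MMP15, a second membrane-bound metalloproteinase (chr16:58059658-58080805, plus strand), ran the other way in both of these pairs. PEA1 had 3.29, 2.60 and 2.96 log2 CPM and PEA2 had 6.06, 6.36 and 6.47, a 10.2-fold higher level in PEA2 (log2FC 3.35, SE 0.24, FDR = 3.98e-10). PEO1 had 2.94, 2.87 and 2.98 log2 CPM, and PEO4 had 0.64, 0.59 and 0.02 from 4, 4 and 2 reads. All PEO4 libraries lay below those of PEO1 (log2FC -2.52, SE 0.24, FDR = 6.73e-08). This SE comes from all 6 lines and does not measure the spread at 2 to 4 reads. In CP70 the gene was 3.42-fold higher than in A2780 (log2FC 1.77, SE 0.24, FDR = 5.22e-06), with 4.91, 4.77 and 4.96 log2 CPM against 3.35, 2.93 and 3.05, and the lines did not overlap.

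TIMP1, which blocks many secreted metalloproteinases but MMP14 only weakly (chrX:47441807-47446188, plus strand, within SYN1 on the other strand), stood above 5 log2 CPM in every library. CP70 stood above all other lines with 9.03, 9.01 and 9.13 log2 CPM, against 6.51, 6.29 and 6.50 in A2780, and TIMP1 was 6.15-fold higher in CP70 (log2FC 2.62, SE 0.11, FDR = 7.41e-14). PEO4 had 6.79, 6.57 and 6.69 log2 CPM and PEO1 had 5.80, 6.11 and 5.71, without overlap (log2FC 0.81, FDR = 4.15e-06). PEA1 and PEA2 overlapped at 6.87 to 7.02 and 6.67 to 6.88 log2 CPM, and the difference did not pass (log2FC -0.22, 95% confidence interval -0.44 to 0.00, FDR = 0.0816).

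TIMP2 (chr17:76849059-76921469, minus strand), the partner of MMP14 in MMP2 activation, rose most in CP70. A2780 had 2.12, 2.17 and 2.23 log2 CPM and CP70 had 5.45, 5.33 and 5.54, a 9.63-fold higher level in CP70 (log2FC 3.27, SE 0.09, FDR = 9.09e-17). The serous lines all stood above 8 log2 CPM. PEA1 was the highest line at 9.57, 9.47 and 9.43, and PEA2 lay below it at 8.56, 8.57 and 8.68 (log2FC -0.89, SE 0.09, FDR = 3.33e-08). PEO4 lay above PEO1 by 0.29 (SE 0.09, FDR = 0.0117), with 8.55, 8.54 and 8.66 against 8.20, 8.26 and 8.43, and this small difference no longer passed without replicate 1 of PEO1 or replicate 3 of PEO4 (FDR = 0.0614 and 0.0567). The span of TIMP2 overlaps that of CEP295NL on the same strand. Whether their exons share sequence was not tested, and reads of any shared sequence cannot be told apart.

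TIMP3, the inhibitor that binds to the matrix and also blocks ADAM and ADAMTS proteases (chr22:33197691-33259028, plus strand, within SYN3 on the other strand), was either near 0 reads or well above the floor, depending on the line. PEA1 had 0 reads in each library while PEA2 had 217, 521 and 325, or 6.86, 7.23 and 7.22 log2 CPM. Against the floor of 3 reads per library TIMP3 was at least 68.5-fold higher in PEA2 (limma FDR of the fitted log2FC, not of this bound, 2.88e-11). In A2780 and CP70 it held at most 2 reads per library and no fold was computed. PEO1 had 4.75, 5.05 and 4.83 log2 CPM and PEO4 had 5.55, 5.53 and 5.43, and all PEO4 libraries lay above those of PEO1. This log2FC of 0.63 did not pass in the fit of all lines (SE 0.52, FDR = 0.367), which shares its spread with A2780, where the SD of TIMP3 at 0 to 2 reads was 1.56. With the PEO pair fitted alone the same log2FC passed (FDR = 0.000945).

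PLAU, urokinase (chr10:75668935-75677254, plus strand), reached its highest level in PEA2. PEA1 had 7.99, 7.91 and 8.07 log2 CPM and PEA2 had 10.29, 10.38 and 10.33, a 5.08-fold higher level in PEA2 (log2FC 2.34, SE 0.14, FDR = 2.01e-11). A2780 held 3, 2 and 1 reads of PLAU and CP70 held 24, 15 and 17. Their ratio was 6.40 (exact 95% counting interval 2.76 to 18.2). The log2FC of 2.44 was called (SE 0.14, FDR = 1.21e-11), although CP70 at 1.88 to 2.20 log2 CPM stayed far below the serous lines. The SE of this log2FC is shared with the serous lines, at 338 reads or more, and does not measure the spread at 1 to 3 reads. With quantile normalization this log2FC was 1.18, which still passed but was not called. PEO1 and PEO4 overlapped, at 7.08 to 7.23 and 7.22 to 7.43 log2 CPM (log2FC 0.20, 95% confidence interval -0.08 to 0.49, FDR = 0.258).

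PLAUR, the urokinase receptor (chr19:44150247-44174699, minus strand), varied least of the 10 between lines. It was 2.30-fold higher in PEA2 (log2FC 1.20, SE 0.20, FDR = 2.85e-05), with 6.53, 6.92 and 6.63 log2 CPM against 5.38, 5.79 and 5.30 in PEA1. The receptor and its ligand were thus both higher in PEA2, without overlap of the libraries. In the other pairs the receptor overlapped between lines and did not pass (log2FC -0.25 with FDR = 0.332 in CP70 and 0.29 with FDR = 0.271 in PEO4).

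ADAMTS1, a secreted protease that cuts the proteoglycans aggrecan and versican (chr21:28208074-28217728, minus strand), was higher in every resistant line. A2780 had 2.29, 2.47 and 2.09 log2 CPM and CP70 had 4.71, 4.57 and 4.37 (log2FC 2.27, SE 0.18, FDR = 2.78e-09). With quantile normalization it was 1.75 and no longer called. PEA1 had 4.95, 5.02 and 4.68 and PEA2 had 6.26, 6.74 and 6.68 (log2FC 1.68, SE 0.18, FDR = 1.31e-07). PEO1 had 2.51, 2.94 and 2.96 and PEO4 had 6.19, 6.31 and 6.34 (log2FC 3.47, SE 0.18, FDR = 1.64e-11). In each pair every resistant library lay above every sensitive one, and the step was largest in the PEO pair, at 11.1-fold.

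**Figure D2:**
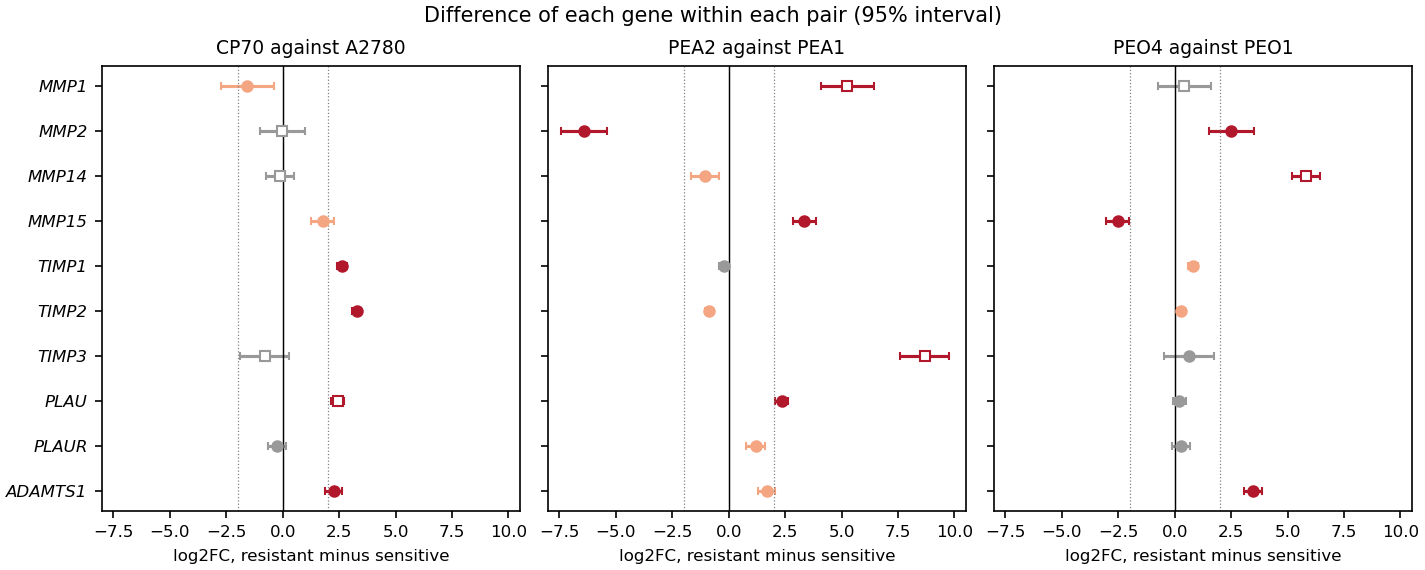
The log2FC (horizontal axis, resistant minus sensitive) of each gene in each pair with its 95% confidence interval, where dark red is called, orange passed only, grey did not pass, open squares mark comparisons in which a line held at most 3 reads in every library, and dotted lines stand at a log2FC of 2 in either direction. ADAMTS1 and PLAU lie right of 0 in all 3 panels, although the interval of PLAU crosses 0 in the PEO panel. MMP2, MMP14, MMP15, TIMP1 and TIMP2 change sides between the PEA and PEO panels, where the interval of TIMP1 crosses 0 in the PEA panel.

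RefSeq promoter windows, the 250 bases before a start site, were at hand for 6 of the 10 genes (MMP14, MMP15, TIMP1, TIMP3, PLAU and PLAUR; MMP1, MMP2, TIMP2 and ADAMTS1 had no entry). They are shown because MMP14 and MMP15 moved in opposite directions in the PEA and PEO pairs while TIMP3, PLAU and PLAUR rose together in PEA2. The windows came from a table of GRCh38.p14, each was found exactly once in GRCh37, and 30 bases around a motif are printed with GRCh37 positions. Capitals mark a GC box (GGGCGG or CCGCCC, the binding motif of SP1, of which the PLAU stretch holds 2) or, in PLAUR, an AP-1 site (TGANTCA). The GC box and the AP-1 site were searched on both strands, and the motifs do not overlap. The stretches of PLAU and PLAUR lie inside the annotated spans of these genes, which have other starts farther upstream, and those of MMP14, MMP15 and TIMP3 lie just upstream of theirs.
MMP14, chr14:23305716-23305745, plus strand: aggagggcactgGGGCGGggacggaggaga
MMP15, chr16:58059581-58059610, plus strand: cgcccccggtccCCGCCCgggtccgcgcat
TIMP3, chr22:33197661-33197690, plus strand: tatatcactcggCCGCCCaggcagcggcgc
PLAU, chr10:75670838-75670867, plus strand: gGGGCGGcgccgGGGCGGgccctgatatag
PLAUR, chr19:44174489-44174518, minus strand: tcacaactccaTGAGTCAgggccgagccag

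The windows of MMP14 and MMP15 both hold a GC box, 1 and 5 copies, and differ in CpG dinucleotides, 7 against 31. TIMP3 holds 5 GC boxes and 26 CpG, TIMP1 2 and 12, and the PLAU window shown 3 and 24, while a second PLAU window has 0 GC boxes and 4 CpG. A GC box occurred in 42.6% of 35116 windows of this length, and the median window held 11 CpG. PLAUR was the exception, with an AP-1 site 186 bases before its start, a motif of 6.57% of windows, and without a GC box. None of these windows holds a TATA box (TATAAA, searched on the strand of the gene only), which 6.80% of all windows do. These matches describe letters in the windows and were not set against binding or accessibility data.

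Across the 6 lines the means of the 10 genes spanned a median of 6.60 log2 units between the highest and lowest line, against 1.88 over all genes. The 10 genes were chosen with earlier results of these data known, so this contrast is not a test. Of the 50 steps between neighbouring lines in the order of a gene, 30 passed, against 33.3% of such steps over all genes. The order of PLAU was PEA2, PEA1, PEO4, PEO1, CP70 and A2780, and in it only PEO4 and PEO1 did not differ beyond their spread (FDR = 0.258). TIMP2 ran PEA1, PEA2, PEO4, PEO1, CP70, A2780, and only PEA2 and PEO4 were inseparable (difference 0.02, FDR = 0.873). ADAMTS1 ran PEA2, PEO4, PEA1, CP70, PEO1, A2780, with PEA2 not separable from PEO4 (FDR = 0.178) nor PEA1 from CP70 (FDR = 0.109). For MMP2 the order was PEA1, PEO4, PEA2, PEO1, A2780, CP70, where every step passed but that between A2780 and CP70, both at the floor. For MMP14 it was PEA1, PEA2, PEO4 and then PEO1, A2780 and CP70, which did not differ from their neighbours (FDR = 0.928 and 0.804). MMP15 ran PEA2, CP70, then A2780, PEA1 and PEO1 without a passing step (FDR = 0.565 and 0.956), then PEO4. TIMP3 ran PEA2, then PEO4 and PEO1 (FDR = 0.367), then A2780, PEA1 and CP70 at the floor. TIMP1 ran CP70, then PEA1, PEA2 and PEO4 without a passing step (FDR = 0.0816 and 0.61), then A2780 and PEO1. PLAUR ran PEA2, then PEO4, PEA1 and PEO1 without a passing step (FDR = 0.399 and 0.692), then A2780 and CP70 (FDR = 0.332). MMP1 ran A2780 and PEA2 (FDR = 0.851), CP70, then PEO4, PEO1 and PEA1 near the floor.

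Levels of different genes were compared per length, as RPKM (CPM per kilobase of exon). TIMP1 was the most abundant of the 10 in A2780, CP70 and PEO4, at a mean of 59.9, 368 and 71.1 RPKM. TIMP2 led in PEA1 at 116 and in PEO1 at 50.8 RPKM. In PEO1 PLAU was close at 48.3 RPKM, and the ranges of TIMP2 (47.4 to 55.7) and PLAU (45.7 to 50.8) overlapped. In PEA2 the protease PLAU led at 438 RPKM, above TIMP1 at 74.4, TIMP2 at 62.6 and TIMP3 at 30.04. In PEA1 MMP2 stood at 84.1 and MMP14 at 44.02 RPKM beside TIMP2, while in PEA2 they stood at 1.06 and 21.2. The level of MMP1 was 5.12 RPKM or below in every line. A bulk library does not show whether fewer cells express a gene or each cell holds less of its RNA.

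Whether a gene's log2FC differed between pairs was tested directly in the same fit, and 25 of the 30 differences passed. Between the PEA and A2780 pairs 7 of the 10 genes differed (57.5% of all genes did), the others being MMP14, PLAU and ADAMTS1. Between the PEO and A2780 pairs 8 differed (47.5%), the others being TIMP3 and PLAUR, and that of MMP1 (2.00, FDR = 0.047) passed in only 3 of the 12 fits without a library of these pairs. Between the PEO and PEA pairs all 10 differed (58.7%). The largest gap was that of TIMP3 between the PEA and A2780 pairs, at 9.48 (SE 0.74, FDR = 1.76e-09), a fitted value that rests on lines with 0 to 2 reads. Among gaps in which no line was at or below 3 reads in all its libraries, it was MMP2, whose log2FC was 8.92 higher in the PEO than in the PEA pair (SE 0.68, FDR = 1.28e-09), and 8.35 to 9.38 higher when a library was left out. MMP15 showed a gap of the opposite sign, -5.86 (SE 0.34, FDR = 3.38e-11). For PLAU the log2FC in the PEA and A2780 pairs differed by -0.10 (95% confidence interval -0.51 to 0.31, FDR = 0.692), a difference that turned to 0.82 with quantile normalization (FDR = 0.000225).

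A linear model with terms for the pair and the sensitivity asked which genes shift across all pairs together. It called ADAMTS1 (log2FC 2.47, SE 0.21, FDR = 1.05e-06), and 3.56% of all genes were called. PLAU (1.66, SE 0.26, FDR = 0.000399) and TIMP1 (1.07, SE 0.29, FDR = 0.0142) passed with it, for 3 of the 10 genes against 24.1% of all genes. The other 7 genes did not pass, among them TIMP3 (2.84, SE 1.06, FDR = 0.0588) and MMP2 (-1.31, SE 0.95, FDR = 0.327). This model treats the 18 libraries as independent, and with the 3 pair differences as the replicates limma called 0 genes, with 395 at an unadjusted p below 0.05, among them 2 of the 10. These were ADAMTS1 (unadjusted p = 0.00274 in limma, FDR = 0.98) and PLAU (unadjusted p = 0.0236 in limma, FDR = 0.98). The log2FC of both was above 0 in 3 of 3 pairs, but that of PLAU did not pass in the PEO pair.

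Over the 18 libraries, which share 6 lines, the log2 values of some of these genes ran together. Pearson's r was 0.936 between PLAU and TIMP2, 0.926 between PLAU and PLAUR, and 0.848 between MMP2 and MMP14. It was 0.804 between MMP2 and TIMP2 and -0.643 between MMP1 and TIMP2. The r of TIMP1 with the others of the 10 ran from -0.516 (TIMP3) to 0.361 (MMP15). The genes most like each member were sought among 8849 genes with a line mean above 5 log2 CPM. They were MET (r = 0.989) and ITGB8 (0.988) for PLAU, JAK1 (0.988) and HLA-B (0.988) for TIMP2, GPR110 (0.986) and PRSS8 (0.982) for TIMP3, and ARHGDIB (0.968) and SCEL (0.964) for PLAUR. For the metalloproteinases they were CHID1 (0.940) and CHEK2 (0.932) for MMP1, PKM (0.973) and PCDHB3 (0.965) for MMP2, and C5orf15 (0.968) and TAPBP (0.957) for MMP14, with YWHAH (0.965) named for MMP15. For TIMP1 they were MUSK (0.967) and BARX1 (0.951), and for ADAMTS1 THEM6 (0.973) and FAM120C (0.968). With only 6 lines behind the 18 libraries, such values describe a shared order of the lines and nothing more.

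The other genes of matrix proteolysis were described from 6 lists with 119 genes, of which 70 were in the table. In the A2780 pair 22 passed as higher and 10 as lower, in the PEA pair 31 and 21, and in the PEO pair 18 and 20. Over all genes 22.2% and 17.7%, 32.5% and 29.4%, and 19.6% and 21.9% passed in these directions. The calls were 7 higher and 3 lower, 18 and 10, and 6 and 5. The shares of all genes called were 5.66% and 3.40%, 7.93% and 6.15%, and 2.86% and 3.37%. The median log2FC of the 70 was 0.04, 0.13 and -0.05 in the A2780, PEA and PEO pairs, against -0.02, 0.01 and -0.02 over all genes, whereas that of the 10 genes described was 0.87, 1.44 and 0.53. With genes at the floor set to their bounds these medians were 0.00, 0.04 and -0.04 for the 70 and 0.89, 1.44 and 0.53 for the 10. These counts include genes at or below 3 reads in every library of both lines, 20, 7 and 1 of the 70. Since the 10 genes and the lists were chosen with earlier results of these data known, the contrast of their medians is not a test.

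**Figure D3:**
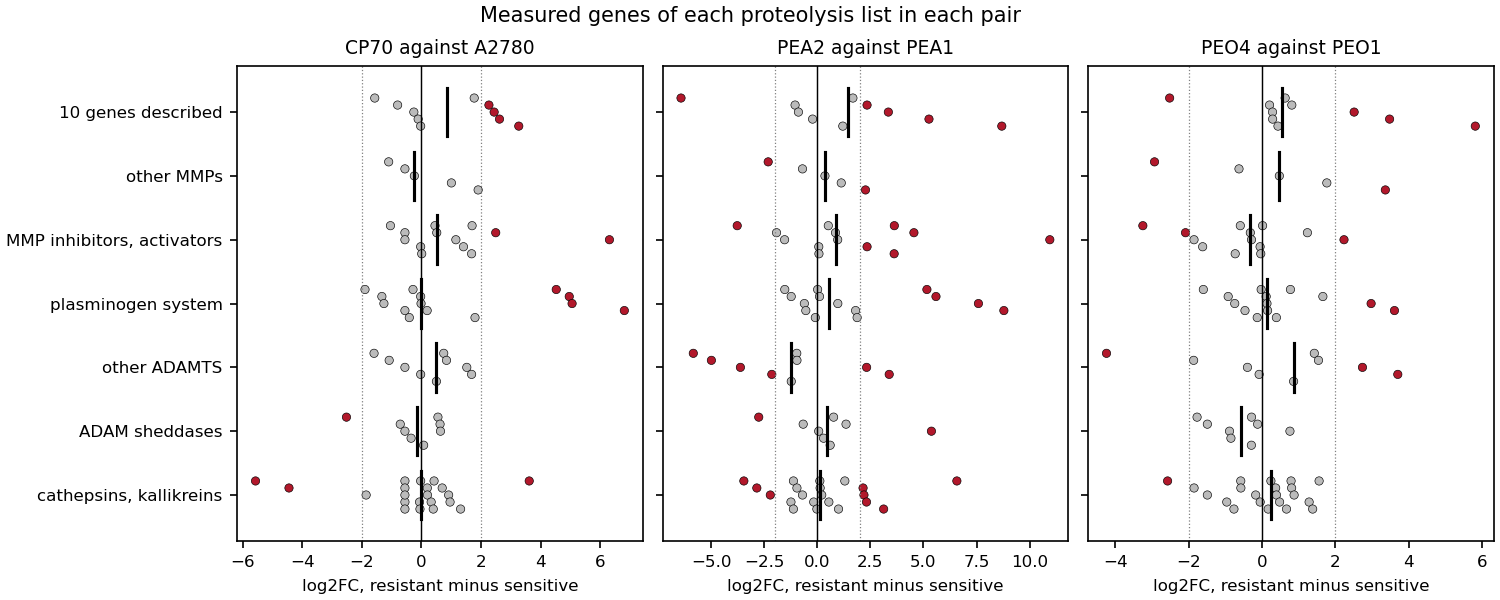
The log2FC (horizontal axis, resistant minus sensitive, with its own range in each panel) of every measured gene of the 10 genes described and of the 6 other lists, where red points are called genes, black bars are list medians, and dotted lines stand at a log2FC of 2 in either direction. The medians of the other lists lie between -1.22 and 0.86, and called genes lie on both sides of 0 in every panel.

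The plasminogen system, 14 measured of 20 listed, had called genes on the higher side only. In the A2780 pair 5 passed as higher and 3 as lower, with 4 called (5.66% of all genes were called higher). In the PEA pair it was 7 and 4, with 4 called (7.93%), and in the PEO pair 3 and 1, with 2 called (2.86%). Of all genes 22.2% and 17.7%, 32.5% and 29.4%, and 19.6% and 21.9% passed as higher and as lower. Over all genes 3.40%, 6.15% and 3.37% were called lower in these pairs. With 14 genes, 0 called lower is near those shares. PLAT, the tissue-type plasminogen activator, was 0.57 log2 CPM in CP70 and 0.58 in A2780 but rose in both serous pairs, by a log2FC of 5.16 in PEA2 (SE 0.44, FDR = 4.12e-09) and 3.61 in PEO4 (SE 0.44, FDR = 1.47e-06). PLAT held 2585, 4623 and 3097 reads in PEA2 against 31, 68 and 88 in PEA1. SERPINE2 (protease nexin-1, which blocks urokinase) held 1 to 3 reads in A2780 and 275 to 450 in CP70, a read ratio of 138 (exact 95% counting interval 59.1 to 427), and its log2FC was -1.23 in PEA2 and -1.60 in PEO4 (FDR = 0.000129 and 1.32e-05). ST14 (matriptase), an epithelial membrane protease that can activate urokinase, held at most 2 reads in PEA1 and 425, 984 and 540 in PEA2, a ratio of 584 (162 to 4829), and was at 0 reads in A2780 and CP70. SERPINB8, an intracellular serpin, was at 0 reads in A2780 and at least 3.73-fold higher in CP70 (FDR of the fitted log2FC, not of this bound, 3.03e-11).

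**Figure D4:**
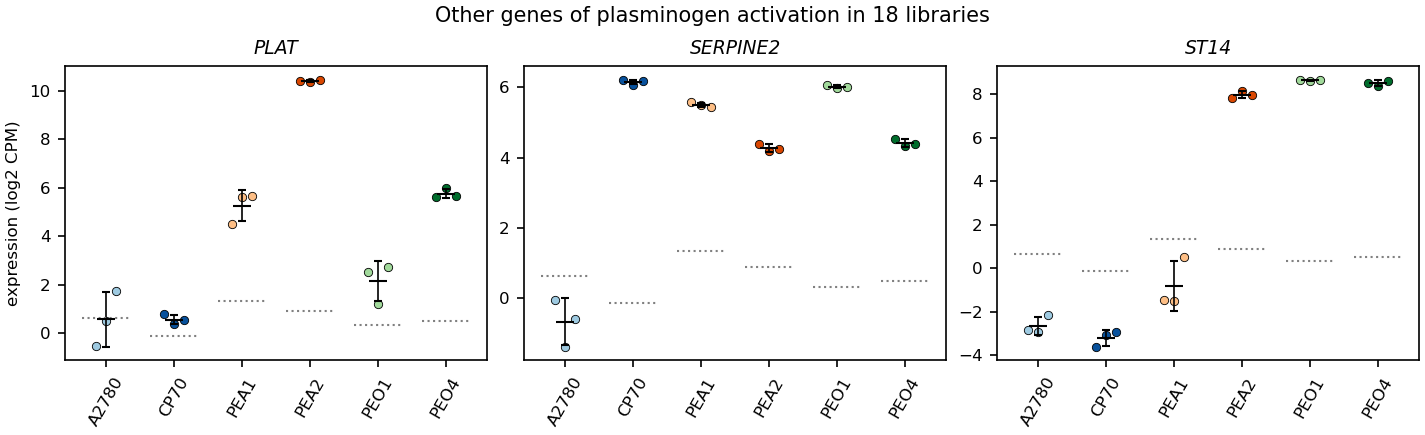
Expression (vertical axis, log2 CPM) of 3 other genes of plasminogen activation in the 18 libraries. Points are single libraries, bars the mean and SD of a line, and dotted lines the highest level of 3 reads among its libraries. PLAT peaks in PEA2 at a mean of 10.43, SERPINE2 is lowest in A2780, and ST14 is near or below the dotted line in A2780, CP70 and PEA1.

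Of 19 other metalloproteinases 5 were measured. MMP7 (matrilysin, an epithelial enzyme) was called higher in PEA2 (log2FC 2.27, SE 0.59, FDR = 0.00233) and MMP16, a membrane-type enzyme, lower (-2.31, SE 0.31, FDR = 2.61e-06). In the PEO pair MMP24, also membrane-bound, was called lower (-2.93, SE 0.35, FDR = 1.04e-06). MMP3 (stromelysin-1) had 0 reads in PEO1 and only 2 to 4 in the PEO4 libraries, which makes it at least 1.47-fold higher there. The FDR of 9.75e-07 belongs to the fitted log2FC of 3.36, which rests on the 0.5 reads added in PEO1, and not to this bound. In the A2780 pair limma called 0 of the 5, while 2 passed as higher in CP70 (22.2% of all genes did).

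Among 13 measured of 15 listed inhibitors and activators of metalloproteinases, 6 passed as higher and 1 as lower in the A2780 pair, 8 and 3 in the PEA pair, and 2 and 6 in the PEO pair. SPOCK2, a matrix proteoglycan, held at most 1 read in A2780 and PEA1, and its read ratio was 177 in CP70 (31.5 to 7015) and 4272 in PEA2 (766 to 168752). TFPI2, a serine protease inhibitor of the matrix that blocks plasmin, passed as higher in every resistant line, by log2FC 2.49 in CP70 (read ratio 6.97, 3.03 to 19.7), 3.63 in PEA2 (SE 0.22, FDR = 2.19e-11) and 1.24 in PEO4 (SE 0.22, FDR = 0.000105). RECK, a membrane-anchored inhibitor of metalloproteinases, was called lower in PEA2 (-3.77, SE 0.48, FDR = 1.16e-06). PCSK5, a proprotein convertase, was called lower in PEO4 (-3.25, SE 0.44, FDR = 5.75e-06), while PCOLCE, which enhances procollagen processing, was called higher there (2.23, SE 0.37, FDR = 5.80e-05).

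The other ADAMTS genes, 9 measured of 24, passed in both directions in the PEA and PEO pairs. In the PEA pair 2 passed as higher and 6 as lower (32.5% and 29.4% of all genes did). In the PEO pair it was 4 and 2 (19.6% and 21.9%). In the A2780 pair it was 1 and 1 (22.2% and 17.7%), and 5 of the 9 were at or below 3 reads in both lines. Among these 5 was the gene passing as higher, ADAMTSL1, with 0 reads in A2780 and 1 to 3 in CP70. ADAMTSL3 was called lower in PEA2 (-4.98, SE 0.39, FDR = 1.42e-09) and PEO4 (-4.24, SE 0.39, FDR = 4.37e-08). ADAMTSL1, a related protein without a protease domain, was 125-fold higher in PEA1 than in PEA2 by read ratio (21.8 to 5005). ADAMTS16 was at 0 reads in PEA1 and at least 1.64-fold higher in PEA2, and ADAMTS12 had a read ratio of 29.9 in PEO4 (4.79 to 1240). Of 8 measured of 15 ADAM sheddases, ADAM19 passed as lower in every resistant line (log2FC -2.52 in CP70, -2.75 in PEA2 and -1.49 in PEO4, each with SE 0.17 and an FDR of at most 4.77e-07), and ADAM8 was at 0 reads in PEA1 and at least 6.79-fold higher in PEA2. Of 21 measured of 26 cathepsins, kallikreins and their kin, CTSK (cathepsin K) was called lower in CP70 (-5.57, SE 0.72, FDR = 2.72e-06), CTSO lower in PEA2 (-3.45, SE 0.62, FDR = 7.16e-05) and KLK5 lower in PEO4 (-2.57, SE 0.36, FDR = 7.44e-06). The serine protease HTRA1 was at 0 reads in A2780 and at least 1.93-fold higher in CP70, and the cystatin CST6 had a read ratio of 211 in PEA2 (37.6 to 8360).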

How the data were processed

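RNA-seq of 18 libraries was analysed, 3 replicates of each of 6 lines, grouped by the cell line in the labels. Reads were counted by the authors over the known genes of hg19 (featureCounts), normalization was done in limma, and the submitters' processing notes also name Bowtie2. They deposited log2 CPM values with 0.5 reads added to each count. All columns of sample values were used, and whole reads were recovered from them (tolerance 0.001 reads). The kit keeps strand, but whether counting used it is not given in the sources used here.

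The deposited log2 values were fitted with limma 3.58.1 in R 4.3.3 (a mean per line, moderated statistics with a trend, Benjamini-Hochberg over 12853 genes). A called gene had |log2FC| above 2 and an FDR below 0.05. A fold against a line at 0 reads was set against 3 reads per library, and lines with at most 3 reads got a read ratio with an exact 95% counting interval. RPKM used the exons of an annotation of GRCh37, the build also called hg19. The fits were tested on simulated data.

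The members and lists were chosen with earlier results of these data known. The genes named are the members, in each pair the called gene with the highest and the lowest log2FC of each other proteolysis list whose lines do not overlap, and the 2 genes most correlated with each member. Some genes under this rule are left unreported and remain in counts over lists. PLAT, SERPINE2, TFPI2 and ADAM19 were followed into the other pairs after their values were seen.

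Alternatives were each pair fitted alone, quantile normalization, a filter that dropped the 355 genes with a mean log2 CPM of 0 or less, the replicate number as a block, limma without the trend, voom weights, 2 reads added to each count, a 4-fold bound in treat of limma, a threshold of 1 for |log2FC|, other forms of the linear model, and leaving out each library in turn.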

Additional observations from a re-analysis of the deposited data

Results flagged for a closer look

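The pairs share no library, and the difference of the log2FC between 2 pairs was tested for each gene in limma. The 25 differences with an FDR below 0.05 are given here as values. For MMP1 the log2FC was 6.82 higher in the PEA than in the A2780 pair, 2.00 higher in the PEO than in the A2780 pair (which did not pass in 9 of 12 fits that left out a library, with values from 1.44 to 2.83), and the PEO minus PEA difference was -4.82. The MMP2 differences were -6.39 (PEA minus A2780), 2.53 (PEO minus A2780) and 8.92 (PEO minus PEA), and MMP2 was at or below 1 read per library in A2780 and CP70. MMP14 differed by 5.92 (PEO minus A2780) and 6.85 (PEO minus PEA). MMP15 differed by 1.57 (PEA minus A2780), -4.29 (PEO minus A2780) and -5.86 (PEO minus PEA). The log2FC of TIMP1 differed by -2.84 (PEA minus A2780), -1.81 (PEO minus A2780) and 1.03 (PEO minus PEA). The corresponding TIMP2 differences were -4.15, -2.98 and 1.17. TIMP3 differed by 9.48 (PEA minus A2780) and -8.06 (PEO minus PEA), where PEA1 held 0 reads. PLAU differed by -2.24 (PEO minus A2780) and -2.14 (PEO minus PEA), and PLAUR by 1.46 (PEA minus A2780) and -0.92 (PEO minus PEA). The ADAMTS1 differences, 1.21 (PEO minus A2780) and 1.80 (PEO minus PEA), were differences in size, since its log2FC was above 0 in each pair.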

How the results depend on the processing

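The replicate numbers did not pair the libraries (correlations of same-numbered deviations from -0.184 to 0.22), and with the replicate block 4, 5 and 4 members were called in the A2780, PEA and PEO pairs, as without it, while the linear model called 389 in place of 457 genes. With quantile normalization 2 members were called in the A2780 pair (PLAU and ADAMTS1 fell below a log2FC of 2, at 1.18 and 1.75), TIMP1 passed in the PEA pair (FDR = 0.00747), the median of all genes there moved from 0.01 to -0.10, and the PLAU difference between the PEA and A2780 pairs turned from -0.10 to 0.82 (FDR = 0.000225); the cause was not tested. At |log2FC| above 1, genes called higher and lower were 1497 and 973 in the A2780 pair, 2354 and 1966 in the PEA pair (with 8 members) and 1176 and 1242 in the PEO pair. With treat they were 403 and 234, 562 and 407, and 110 and 156 (with 2 members in the PEO pair). For the linear model, the 3 pair differences as replicates gave 0 genes and 0 members, and the FDR alone 3092 genes and 3 members. Leaving out each library gave 1 to 2 members called in the linear model, TIMP3 being added without replicate 3 of A2780 or of CP70. It turned the sign of differences near 0: PLAU between the PEA and A2780 pairs (-0.29 to 0.012, above 0 without replicate 2 of A2780), MMP14 in the A2780 pair (-0.28 to 0.055, above 0 without replicate 3 of A2780) and MMP1 in the PEO pair (-0.13 to 1.26, below 0 without replicate 2 of PEO1 or replicate 3 of PEO4). The 1.26 of MMP1 passed, without replicate 2 of PEO4 (FDR = 0.0494), and its difference between the PEO and A2780 pairs did not pass in 9 of 12 such fits (FDR up to 0.144). Voom weights made TIMP3 pass in the PEO pair (FDR = 0.00244). Genes near the floor of 3 reads limit the MMP1, MMP2, MMP14, MMP15 (2 to 4 reads in PEO4), TIMP3 and PLAU comparisons named above.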
